A study of Mus musculus with 75 samples.

Results

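The 10 genes described here encode 4 annexins (*Anxa1*, *Anxa2*, *Anxa3*, and *Anxa5*), 4 S100 proteins (*S100a4*, *S100a6*, *S100a10*, and *S100a11*), and 2 galectins (*Lgals1* and *Lgals3*). They were chosen by name from 32245 genes in a table of counts from whole mouse kidneys. All 10 were in the table and passed the filter on low counts in each arm of the study. Every one of them rose in the obstructed kidneys of IgG-treated mice, by between 1.96-fold (*Anxa5*) and 7.36-fold (*S100a6*), where 16.0% of tested genes rose. None differed between treated or knockout mice and their controls after adjustment for multiple testing. For ABTAA treatment and *Veptp* knockout, 0.00% of tested genes differed. In obstructed kidneys of *Pdgfb* knockout against control mice, 6.58% of tested genes were lower and 12.0% higher. The exception was a fit without TMM normalization, a scaling for composition. There 7 members were lower in obstructed kidneys of *Pdgfb* knockout than of control mice, as were 21.8% of all genes.

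Annexins bind phospholipid membranes in the presence of calcium. S100 proteins are small calcium sensors with EF-hand motifs, and several of them bind an annexin: S100A10 forms a complex with annexin A2, S100A11 binds annexin A1, and S100A6 binds several annexins. Galectins are lectins that bind beta-galactosides on glycoproteins and act both inside and outside the cell. In the kidney, several of these genes are known from injured tubule epithelium, macrophages, and fibroblasts. S100A4 has long been used as a fibroblast marker, although leukocytes express it too, and galectin-3 is a product of macrophages and of injured epithelium.

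Unilateral ureteral obstruction (UUO) ligates 1 ureter, and the contralateral (CL) kidney is the comparison. RNA was taken 3 days after surgery from adult mice of both sexes, with 75 libraries in 12 groups and 1 library per kidney. In the ABTAA arm, C57BL6/J mice or WT mice from the study's breeding received i.p. injections of ABTAA (group ABT), an antibody that binds ANGPT2 and activates TIE2, or of human IgG Fc (group IgG). Here 8 IgG CL, 8 IgG UUO, 7 ABT CL, and 7 ABT UUO libraries were available. In the *Veptp* arm, VeKO mice carried floxed *Veptp* (the gene *Ptprb*, a phosphatase that dephosphorylates TIE2) and tamoxifen-induced *Cdh5*-CreERT2, which is active in endothelium. Their VeWT controls were noninduced *Veptp* wt/lox mice with the same Cre transgene, so tamoxifen and genotype cannot be told apart. This arm held 7 VeWT CL, 8 VeWT UUO, 6 VeKO CL, and 8 VeKO UUO libraries. PbKO mice carried floxed *Pdgfb* and a tamoxifen-inducible *Actb*-CreERT2 transgene that is active throughout the body, and PbWT controls were Cre-negative littermates that were *Pdgfb* wt/lox or lox/lox. Each of the 4 groups of the *Pdgfb* arm held 4 libraries, and 2 of the PbWT CL kidneys came from sham-operated mice that the labels do not mark. The knockout lines were on a mixed background. All mice with UUO received carprofen.

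Library totals ranged from 172827 to 2341800 counts, with a median of 757897, and levels are given as CPM, the count relative to a library total scaled by TMM normalization within an arm. *Ptprb* was at 12.7 to 66.1 CPM in VeKO UUO and at 26.2 to 93.5 CPM in VeWT UUO, and the log2 fold change was -0.69 (SE 0.33) with an adjusted p of 1.00. *Pdgfb* was at 16.6 to 24.9 CPM in CL libraries labelled PbKO against 4.43 to 19.9 CPM in PbWT, so these counts were not lower there. The log2 fold change was 0.78 (SE 0.33) and was not called after adjustment. Whether the counted reads fall within the deleted stretch of *Pdgfb* or *Ptprb* is not given in the labels or the study's methods. In UUO kidneys *Pdgfb* was at 33.4 to 40.6 CPM in PbKO and at 43.2 to 57.8 CPM in PbWT (log2 fold change -0.47, SE 0.21, adjusted p = 0.124). Library names have 2 forms. In 45 names a letter is followed directly by a number (plain names), and in 30 the character _ stands between them (split names). What the forms stand for is not given in the labels or the study's methods, and the *Pdgfb* arm holds plain names only. In the *Veptp* arm, the CL and UUO libraries that share the numbers 3, 4, 7, and 8 carry opposite genotypes, and VeWT UUO holds 1 library more than the mice counted in the study's methods. Kidney tissue was marked by 9 proximal tubule genes with a summed level of 6737 to 9040 CPM in IgG CL, and all 9 had counts in every group.

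By the GENCODE annotation of GRCm38, the build called mm10 in the labels, 5 of the genes lie on chromosome 3. *S100a4* (chr3:90603771-90606045) and *S100a6* (chr3:90612882-90624181) lie close to each other on the plus strand, with *S100a5* between them. *S100a11* (chr3:93520488-93526287) and *S100a10* (chr3:93555080-93564643) lie farther along the same strand. *Anxa5* is at chr3:36448923-36475894 on the minus strand. The others are *Anxa1* (chr19:20373428-20390944, minus strand), *Anxa2* (chr9:69453620-69491795, plus), *Anxa3* (chr5:96793339-96845966, plus), *Lgals1* (chr15:78926725-78930465, plus), and *Lgals3* (chr14:47367751-47386160, plus). Exons of *S100a4* overlap those of Gm42674 on the same strand, a gene that the count table does not list. No other member shares exon bases with another annotated gene.

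Promoter sequences from RefSeq (GRCm38.p6, 250 bases before to 50 bases after the start) were found for 7 members, *Anxa1*, *Anxa2*, *Anxa5*, *S100a4*, *S100a6*, *S100a11*, and *Lgals3*. They are described here because the members rose together in the obstructed kidney. The letters TGACTCA, the consensus element bound by AP-1, or their reverse complement TGAGTCA were in 2 of these 7 promoters, *Anxa2* and *S100a11*, and in 5.20% of all 32851 promoters of that length. A match is a description of the letters and does not show that a factor binds. The match in Anxa2 begins 95 bases before the RefSeq start, and those in S100a11 begin 136 and 38 bases before it. The stretches printed are chr9:69453568-69453614 for Anxa2 and chr3:93520340-93520484 for S100a11, both on the plus strand. The matches are in capitals, and the flanking bases end before the first annotated base of the gene.
Anxa2: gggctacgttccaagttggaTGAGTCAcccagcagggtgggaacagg
S100a11: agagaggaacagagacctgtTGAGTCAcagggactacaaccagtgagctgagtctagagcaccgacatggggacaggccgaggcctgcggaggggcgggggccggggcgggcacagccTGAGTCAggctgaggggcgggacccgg
The *Anxa2* promoter also held TATAAA, found in 13.6% of all promoters, as did those of *Anxa1* and *S100a4*. GGGCGG, a GC box, was in those of *Anxa2*, *S100a11*, and *Lgals3*, against 35.7% of all promoters. Both motifs were counted on both strands.

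The first question was how the 10 genes changed with obstruction. In IgG-treated mice all 10 rose at an adjusted p under 0.05 (edgeR's quasi-likelihood test), where 16.0% of 9579 tested genes rose. The ranges of the 8 UUO and 8 CL libraries did not overlap for 7 of the 10, against 4.28% of tested genes that were higher without overlap. In ABT mice all 10 rose as well (12.7% of tested genes), 6 of them without overlap (3.99%). The median log2 fold change of the members was 1.60 in IgG and 1.48 in ABT, against 0.014 and 0.0025 over all tested genes. In bulk tissue, more cells of a type and more RNA per cell cannot be told apart.

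**Figure D1:**
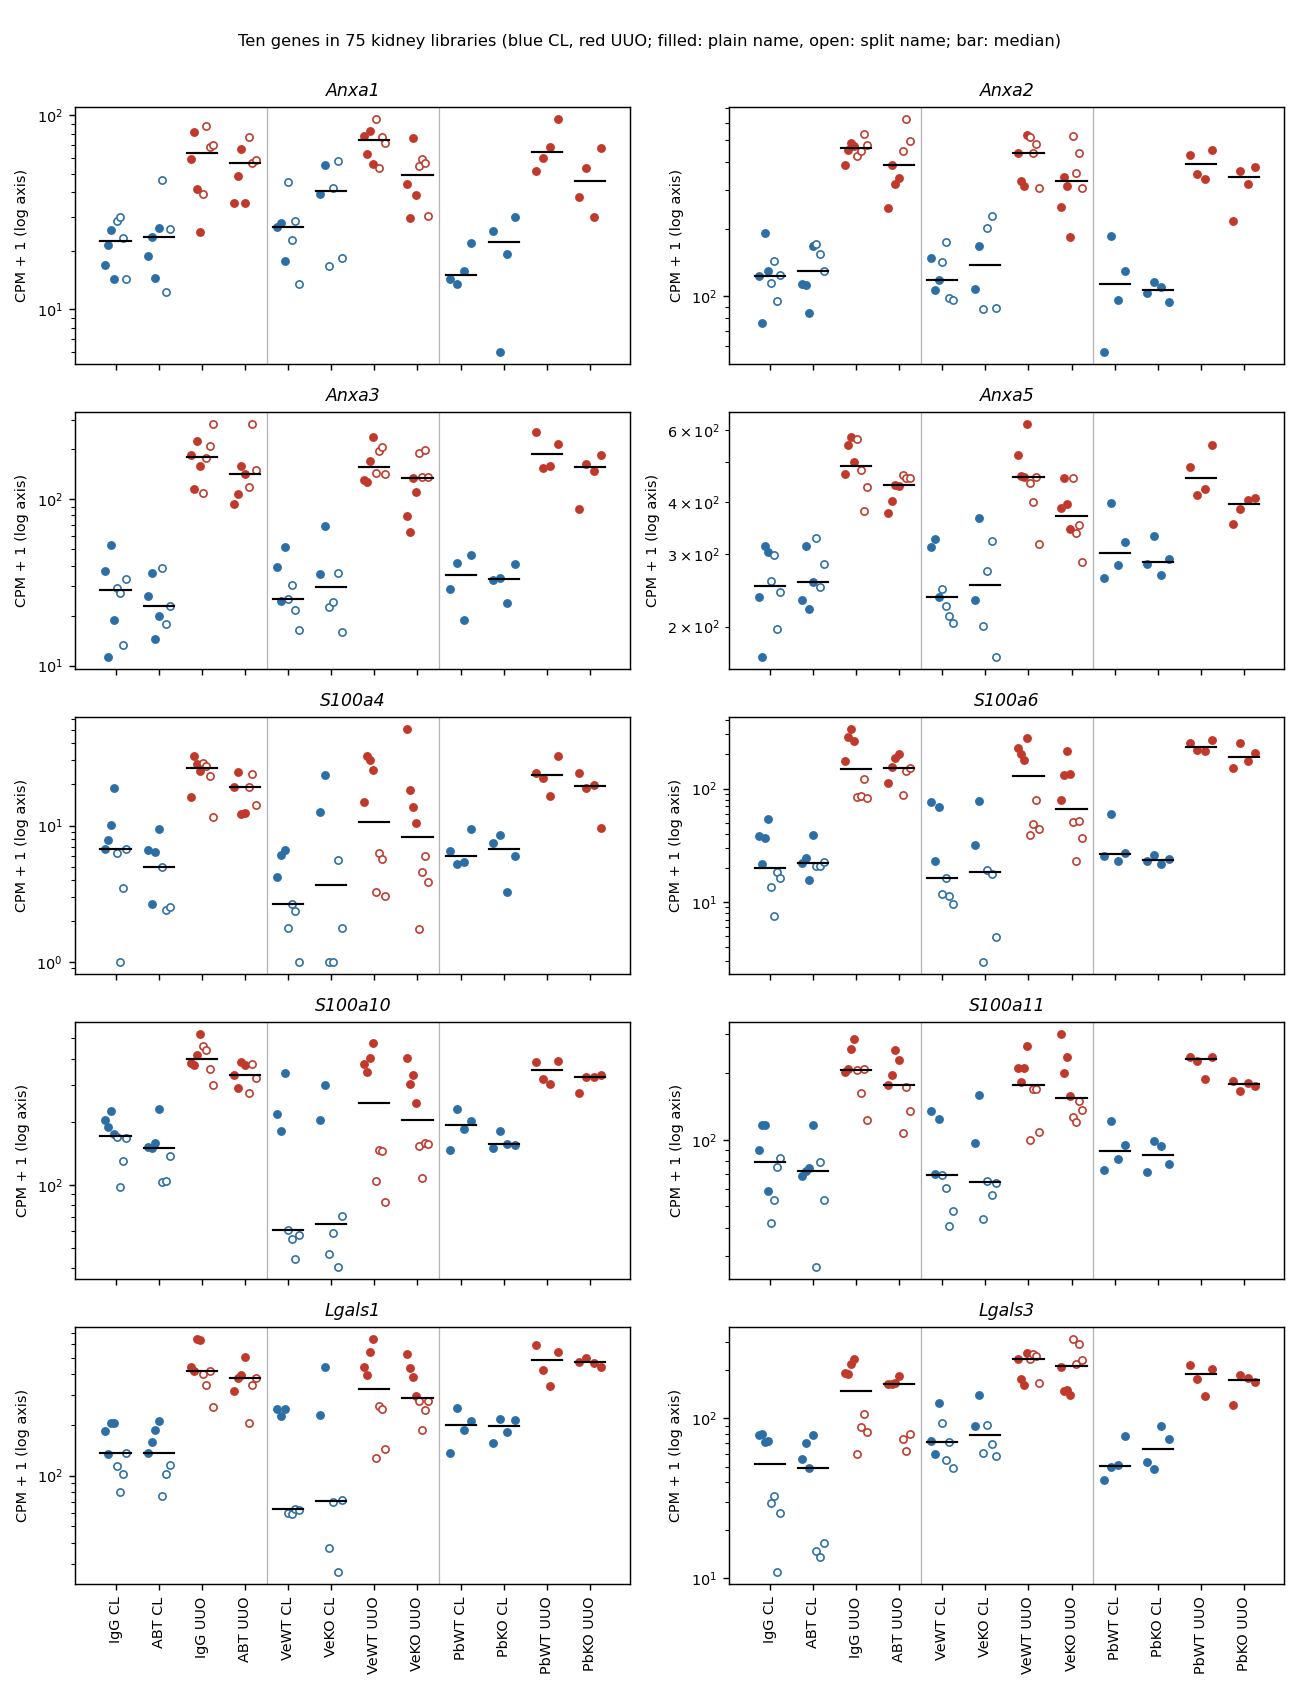
Level of each of the 10 genes in all 75 libraries, as CPM + 1 on a log axis, by group. Blue points are CL and red points UUO kidneys, filled points are libraries with plain names, open points those with split names, and bars are group medians. The bars of the UUO groups lie above those of the CL groups of the same mice for every gene, with overlapping points for several of them, and open points lie below filled ones for *S100a6*, *S100a10*, and *Lgals1* in the Veptp groups.

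Of the annexins, *Anxa3* changed most. This gene, whose product is known from neutrophils and epithelia, was at 10.3 to 51.9 CPM (median 27.3) in IgG CL and at 108 to 284 CPM (median 180) in IgG UUO. Every UUO library was above every CL library, a 6.27-fold difference (log2 2.65, SE 0.26, adjusted p = 9.46e-10). In ABT mice it was at 13.4 to 37.4 CPM (median 21.7) in CL and at 92.3 to 281 CPM (median 141) in UUO kidneys, again with no overlap and 6.18-fold apart.

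*Anxa2* encodes the annexin that binds S100A10 and serves at the cell surface as a receptor for tissue plasminogen activator. It was at 75.3 to 191 CPM (median 123) in IgG CL and at 387 to 535 CPM (median 461) in IgG UUO. The ranges were far apart, and the rise was 3.66-fold (log2 1.87, SE 0.17, adjusted p = 2.84e-10). In ABT mice *Anxa2* rose 3.09-fold, also without overlap.

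*Anxa1*, whose product dampens leukocyte recruitment through formyl peptide receptors, was at 13.3 to 28.9 CPM (median 21.4) in IgG CL and at 24.1 to 87.2 CPM (median 63.2) in IgG UUO. The lowest UUO library lay within the CL range, and the rise was 2.79-fold (adjusted p = 1.03e-05). *Anxa5*, known for binding phosphatidylserine on dying cells, had the smallest rise of the 10, from 168 to 313 CPM (median 249) to 381 to 577 CPM (median 490). Its groups nevertheless did not overlap (1.96-fold, adjusted p = 1.41e-07), and in ABT mice they were 1.62-fold apart without overlap.

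Of the S100 genes, *S100a6* (calcyclin) changed most. It was at 6.56 to 53.3 CPM (median 18.9) in IgG CL and at 81.8 to 336 CPM (median 148) in IgG UUO. No UUO library was as low as any CL library (log2 fold change 2.88, SE 0.33, adjusted p = 1.80e-08). The rise in ABT mice was 6.55-fold, also without overlap. *S100a10* and *S100a11* rose 2.39-fold and 2.59-fold in IgG mice, both without overlap, and 2.28-fold and 2.61-fold in ABT mice, where the ranges of *S100a11* overlapped.

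*S100a4* was counted thinly, with 0 to 11 counts in a library of IgG CL and 4 to 20 counts in IgG UUO. This corresponded to 0 to 17.8 CPM (median 5.73) in CL and 10.5 to 31.3 CPM (median 25.3) in UUO kidneys, so that the ranges overlapped. Its rise was 3.61-fold (log2 1.85, SE 0.36, adjusted p = 8.11e-05) in IgG and 4.21-fold in ABT mice, where the groups did not overlap.

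*Lgals1* encodes galectin-1, a lectin of mesenchymal and immune cells, and was at 78.8 to 205 CPM (median 134) in IgG CL and at 255 to 645 CPM (median 415) in IgG UUO. The groups did not overlap (3.07-fold, adjusted p = 2.84e-07). *Lgals3*, which encodes galectin-3, was at 9.91 to 78.7 CPM (median 50.7) in IgG CL and at 59.2 to 235 CPM (median 148) in IgG UUO. Its ranges overlapped, and the rise was 2.98-fold with the largest SE of the 10 in this comparison (log2 1.58, SE 0.37, adjusted p = 0.00107).

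The overlap of *Lgals3* ran along the form of library name. Libraries with plain names were at 70.0 to 78.7 CPM in IgG CL and at 190 to 235 CPM in IgG UUO. Those with split names were at 9.91 to 31.5 CPM and at 59.2 to 105 CPM. Within either form the UUO libraries were thus above all CL libraries, and a fit with the form as a covariate put the rise at 1.60 on the log2 scale (SE 0.15, adjusted p = 5.02e-11).

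**Figure D2:**
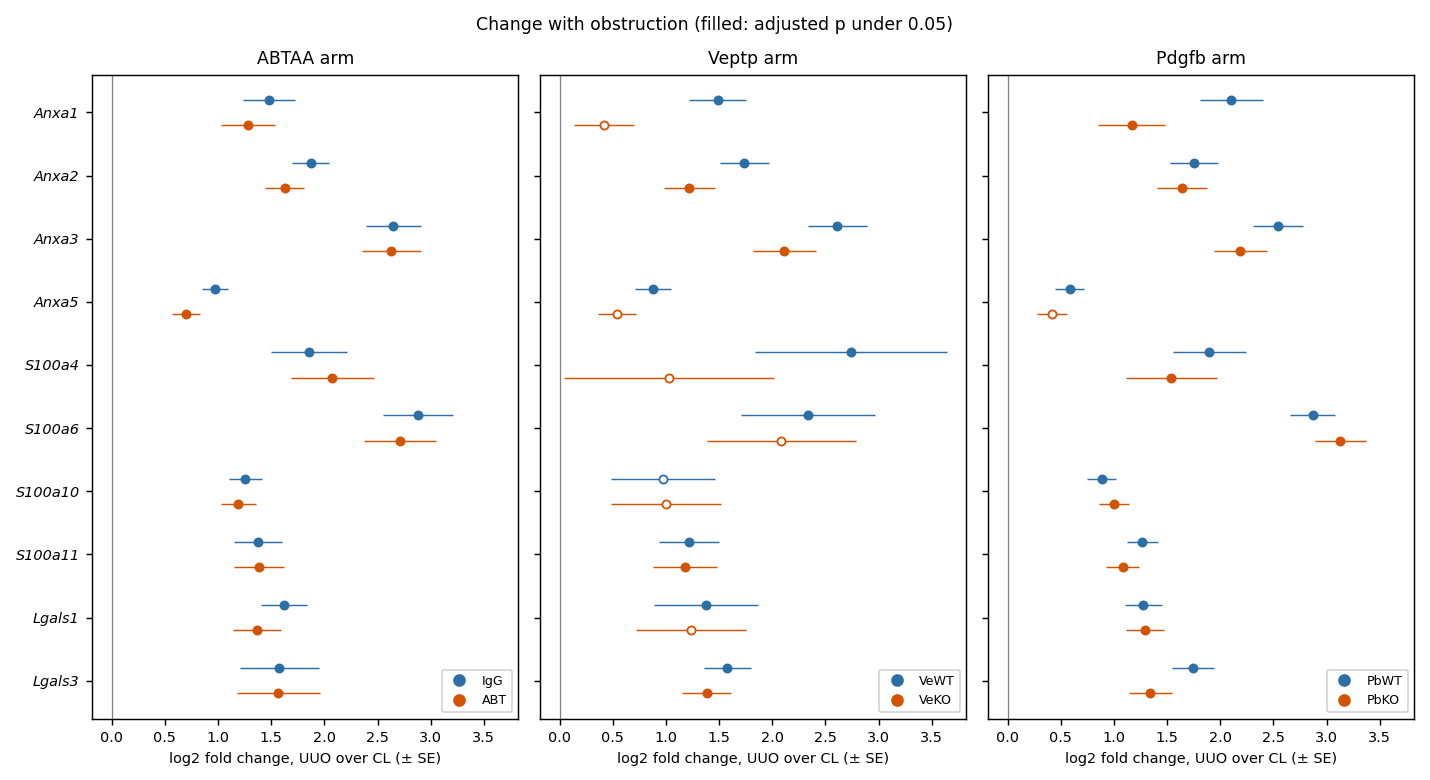
Log2 fold change of UUO over CL kidneys for the 10 genes in the control mice (blue) and the treated or knockout mice (orange) of each arm. Bars are the SE and filled points have an adjusted p under 0.05. All points lie to the right of 0, and the open points are mostly in VeKO.

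In VeWT mice 9 of the 10 rose, all but *S100a10*, where 10.0% of 11916 tested genes rose. *Anxa1*, *Anxa2*, *Anxa3*, and *Lgals3* did so without overlap (3.26% of tested genes). *Anxa3* was again the annexin with the largest rise, from 15.4 to 50.4 CPM (median 24.0) in CL to 126 to 236 CPM (median 156) in UUO kidneys (6.12-fold, adjusted p = 2.78e-07). *Anxa1* was at 12.5 to 44.2 CPM (median 25.5) in CL and at 52.5 to 95.1 CPM (median 73.4) in UUO kidneys, a 2.80-fold rise. For *S100a4* the call (adjusted p = 0.0282) was lost when VeWT CL replicate 4, 5, 6, or 7 or VeWT UUO replicate 2, 3, or 4 was left out, with an adjusted p of up to 0.0782. For *Lgals1* (adjusted p = 0.0469) it was lost without any 1 of VeWT CL replicates 4 to 7, VeWT UUO replicates 1 to 4, or VeKO UUO replicates 2 to 5, 7, and 8, with an adjusted p of up to 0.109.

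*S100a10* in the *Veptp* arm split by the form of library name rather than by obstruction alone. VeWT CL libraries with plain names were at 180 to 342 CPM and those with split names at 43.4 to 59.7 CPM. VeWT UUO libraries were at 343 to 476 CPM with plain and at 81.9 to 146 CPM with split names. Within each form every UUO library was above every CL library, yet over both forms the ranges overlapped (log2 fold change 0.97, SE 0.49, adjusted p = 0.182). When the form entered the model, the log2 fold change was 0.96 (SE 0.18, adjusted p = 6.70e-05), and all 10 members were then called in VeWT (16.6% of genes). All 10 were also called in plain names alone (7.32%) and with a replicate block (14.3%), a fit in which CL and UUO libraries of the same number share a term. In this arm the blocks of the numbers 3, 4, 7, and 8 join kidneys labelled with opposite genotypes. The count was 7 with *Xist*, an X-linked RNA of female cells, as a covariate (9.99%) and 8 of 9 tested members after thinning to the depth of the shallowest library (7.04%). It was 10 without TMM normalization (11.5%) and 7 without the numbers 3, 4, 7, and 8 (4.68%), where *S100a4* and *Lgals1* also missed the threshold (adjusted p = 0.110 and 0.147).

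In VeKO mice 4 of the 10 rose (*Anxa2*, *Anxa3*, *S100a11*, and *Lgals3*), where 4.47% of tested genes rose and 0.697% were higher without overlap. No member was higher without overlap. *Anxa3* was at 15.0 to 67.7 CPM (median 28.8) in CL and at 62.8 to 197 CPM (median 134) in UUO kidneys, and its rise was 4.32-fold (adjusted p = 3.58e-05). *Anxa1* was at 15.6 to 57.0 CPM (median 39.9) in CL and at 28.6 to 75.4 CPM (median 48.3) in UUO kidneys. These ranges largely coincided (log2 0.42, SE 0.28, adjusted p = 0.455). With the replicate block 9 were called, all but *S100a4* (10.1% of genes), and 8 when the form entered the model (10.7%). The count was 6 by DESeq2 (5.57%), 4 by edgeR's exact test (4.41%), 5 without the filter on low counts (2.54%), and 6 after thinning (2.37%). It was 7 without TMM normalization (5.09%), 7 with *Xist* as a covariate (6.27%), and 2 without the numbers 3, 4, 7, and 8 (0.852%). In split names alone 8 of 9 tested members were called (10.1%), and in plain names alone, with 2 CL libraries, 0 were, as was no other gene (0.00%). There all 10 were higher in UUO kidneys, by 0.099 to 1.47 on the log2 scale. Of those 2 CL libraries 1 is replicate 2, described in the next paragraph.

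One VeKO CL library, replicate 2, stood apart from the other CL kidneys of its group. It held 438 CPM of *Lgals1*, 298 CPM of *S100a10*, 158 CPM of *S100a11*, and 67.7 CPM of *Anxa3*, each the highest of the 6, from a total of 278084 counts. Only 2 libraries of the group have plain names, this one among them. Both lay above all split names for *Lgals1* (227 to 438 against 25.8 to 70.3 CPM), *S100a10* (204 to 298 against 39.5 to 70.3 CPM), and *S100a11* (96.0 to 158 against 42.9 to 64.4 CPM). In replicate 2 the summed level of 9 injured tubule markers was 16985 CPM against 1640 to 5509 CPM in the other 5. That of 9 fibroblast markers was 908 CPM against 194 to 455 CPM, and that of 10 macrophage markers 483 CPM against 111 to 236 CPM. Their part in the VeKO result was not tested. Without this library 7 members rose in VeKO, where 5.54% of tested genes rose, with *Anxa5*, *S100a6*, and *Lgals1* added (adjusted p = 0.0180, 0.0112, and 0.00939).

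In PbWT mice all 10 rose (17.9% of 10923 tested genes) and none of the 10 overlapped between CL and UUO kidneys (16.9% of genes were higher without overlap). *Anxa1* was at 12.5, 13.3, 14.8, and 20.9 CPM in CL and at 50.8, 59.6, 67.8, and 95.0 CPM in UUO kidneys. This 4.30-fold rise (adjusted p = 3.27e-06) was the largest of *Anxa1* in the 6 groups of mice. *S100a6* was at 22.1, 24.4, 26.2, and 58.6 CPM in CL and at 215, 217, 250, and 268 CPM in UUO kidneys (7.30-fold).

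In libraries labelled PbKO 9 of the 10 rose (3.94% of tested genes), all but *Anxa5*, and again none of the 10 overlapped (6.20%). *S100a6* was at 20.4, 21.7, 22.9, and 25.0 CPM in CL and at 150, 173, 205, and 251 CPM in UUO kidneys, 8.75-fold apart (adjusted p = 1.32e-08). That was the largest fold of any member in the 6 groups of mice. *Anxa5* was at 265, 283, 290, and 330 CPM in CL and at 354, 386, 404, and 409 CPM in UUO kidneys (log2 fold change 0.42, SE 0.14, adjusted p = 0.0726). The call of *Anxa1* was lost without PbKO CL replicate 2 or 3 or PbKO UUO replicate 2 or 4 (adjusted p up to 0.158), and that of *S100a4* without PbKO CL replicate 3 or 4 or PbKO UUO replicate 2 or 3 (up to 0.0969). *Anxa5* was called without PbWT CL replicate 1 or 2 (adjusted p = 0.0490 and 0.0433), whose libraries enter the estimate of the spread. It was also called without TMM normalization (adjusted p = 0.0241) and with *Xist* as a covariate (adjusted p = 0.0493), when all 10 were called (5.13% and 5.27% of genes), and 8 of 9 tested members were called after thinning (2.45%).

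TMM normalization centres the typical gene at no change. Without it, the median log2 fold change of all tested genes was 0.40 in PbWT, 0.21 in IgG, 0.13 in VeWT, 0.12 in ABT and VeKO, and 0.076 in PbKO. The rises above are relative to that shift. Every member was higher in UUO than in CL kidneys in all 6 groups of mice also without it.

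Order among the members was similar in several groups. *S100a6* and *Anxa3* had the largest fold changes in IgG, ABT, PbWT, PbKO, and VeKO, and in VeWT *S100a4* (log2 2.74, SE 0.90), *Anxa3* (2.61, SE 0.28), and *S100a6* (2.33, SE 0.63) differed by less than the SE of *S100a4*. *Anxa5* had the smallest change in IgG, ABT, VeWT, PbWT, and PbKO, and *Anxa1* in VeKO.

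Several members, most of them short transcripts, differed between the forms of library name. With group in the fit, libraries with split names were lower in the *Veptp* arm by log2 differences of -2.65 (*S100a4*, SE 0.32), -2.08 (*S100a6*, SE 0.20), -1.75 (*S100a10*, SE 0.13), -1.57 (*Lgals1*, SE 0.18), and -0.83 (*S100a11*, SE 0.12). *Anxa5* was lower by much less (-0.30, SE 0.10), and *Anxa1*, *Anxa2*, *Anxa3*, and *Lgals3* did not pass the test, with differences of -0.040 to 0.23. Thus 6 members were called, where 28.4% of tested genes were called lower and 34.0% higher. In the ABTAA arm 5 were called lower, *Lgals3* (-1.48, SE 0.11), *S100a6* (-0.93, SE 0.16), *Lgals1* (-0.63, SE 0.11), *S100a11* (-0.58, SE 0.12), and *S100a10* (-0.31, SE 0.10), where 19.8% of tested genes were called lower and 20.6% higher. No annexin was called in that arm.

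The longest coding transcripts of the 4 S100 genes and *Lgals1* are 498 to 800 bases long in the annotation, and those of the 4 annexins and *Lgals3* 1419 to 1731 bases. Over all tested genes with a known length (94.0% of the *Veptp* arm), the median log2 difference between the forms was -1.38 for the 598 genes under 1000 bases, 0.00067 for 1000 to 2000 bases, and 0.15 for longer ones. In the ABTAA arm these medians were -0.56, -0.059, and 0.079. *Lgals3*, with 1419 bases, was lower by more than the median of any length class in the ABTAA arm and not lower in the *Veptp* arm. Length was looked up after the differences had been seen, and its part in them was not tested.

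**Figure D3:**
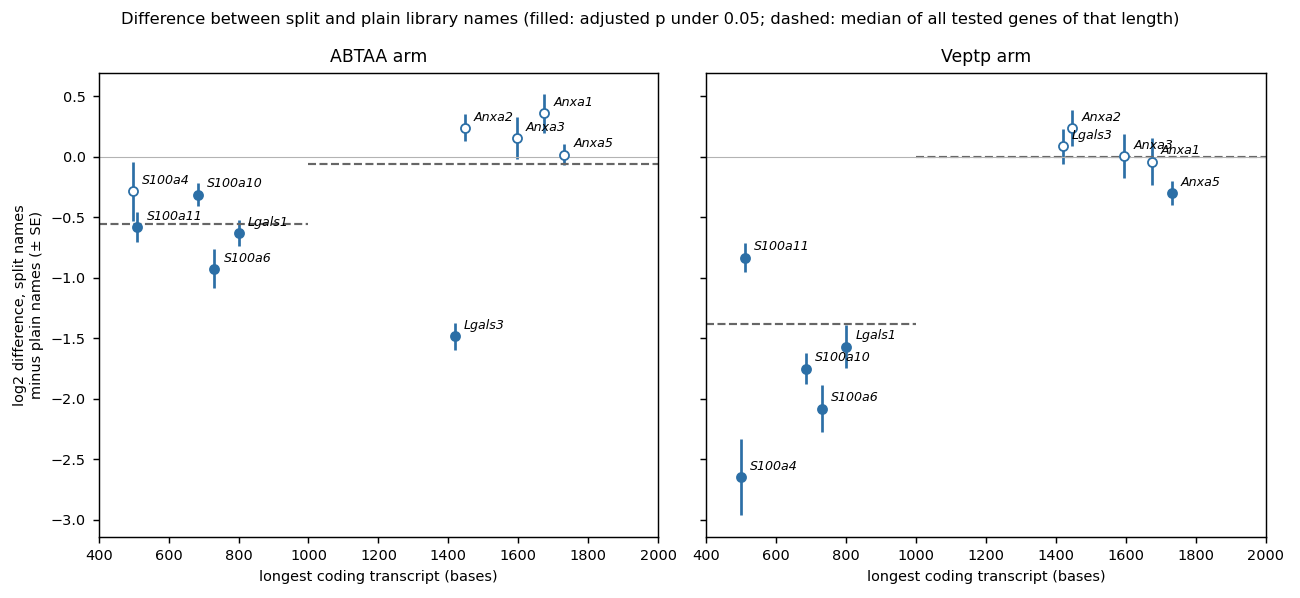
Log2 difference between libraries with split and plain names against the length of the longest coding transcript, for the 10 genes in both arms that hold both forms. Bars are the SE, filled points have an adjusted p under 0.05, and dashed lines are medians of all tested genes under 1000 bases or of 1000 to 2000 bases. The 5 shorter transcripts lie below 0 in both panels.

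The next question was whether TIE2 activation by ABTAA changed the genes. In UUO kidneys none of the 10 differed between ABT and IgG mice by edgeR's quasi-likelihood test (0.00% of 9579 genes were called in either direction), none had an unadjusted p under 0.05 (3.59% of genes did), and DESeq2 and edgeR's exact test called none. All 10 had a negative log2 fold change, from -0.38 (*S100a4*, SE 0.31) to -0.17 (*Anxa1*, SE 0.23), with a median of -0.22 against 0.0070 over all genes, of which 48.4% were negative. In split names alone *Anxa2* and *S100a6* were above 0. With the replicate block *S100a11* and *Lgals3* were, but that fit does not set like forms of name against each other. All ABT libraries with split names fall in blocks, so ABT takes its level from plain names, against IgG of both forms. Within either form the medians of both genes were lower in ABT UUO than in IgG UUO. For *Lgals3* they were 165 against 205 CPM in plain and 72.9 against 84.0 CPM in split names. *S100a10*, the member with the lowest unadjusted p (0.105), was at 297 to 525 CPM (median 398) in IgG UUO and at 272 to 386 CPM (median 333) in ABT UUO. The ranges overlapped for every member (0.0209% of genes were higher and 0.00% lower in ABT without overlap).

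In CL kidneys 7 members were lower and 3 higher in ABT than in IgG mice, with log2 fold changes of -0.60 (*S100a4*, SE 0.44) to 0.089 (*Anxa5*, SE 0.13), and none was called by any of these 3 tools or had an unadjusted p under 0.05 (3.25% of genes). The difference between the responses to UUO, ABT minus IgG, was between -0.28 (*Anxa5*, SE 0.18) and 0.22 (*S100a4*, SE 0.51). None passed the test, and none had an unadjusted p under 0.05 (3.37% of genes).

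For endothelial deletion of *Veptp*, *Anxa1* had the lowest p of the 10. In UUO kidneys it was at 52.5 to 95.1 CPM (median 73.4) in VeWT and at 28.6 to 75.4 CPM (median 48.3) in VeKO. In CL kidneys the medians were in the other order, 25.5 CPM in VeWT (12.5 to 44.2 CPM) and 39.9 CPM in VeKO (15.6 to 57.0 CPM). Both pairs of ranges overlapped. The log2 fold change of VeKO against VeWT was -0.55 (SE 0.25, unadjusted p = 0.0355, adjusted p = 1.00) in UUO and 0.51 (SE 0.29, unadjusted p = 0.0902) in CL kidneys. The difference between the responses to UUO, VeKO minus VeWT, was -1.06 on the log2 scale and did not pass the test (SE 0.39, unadjusted p = 0.00966, adjusted p = 1.00). It was between -1.43 and -0.65 within the forms of library name, with the block, without the numbers 3, 4, 7, and 8, and with *Xist* as a covariate (-0.80, SE 0.39). With that covariate *Anxa1* differed by 0.29 (SE 0.30) in CL kidneys.

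No member was called for VeKO against VeWT in UUO or CL kidneys or for the difference between responses by edgeR's quasi-likelihood test or DESeq2 (0.00% of 11916 genes for the first tool). Members with an unadjusted p under 0.05 numbered 1 in UUO, 0 in CL, and 1 in the difference, against 3.56%, 1.92%, and 2.72% of genes. In UUO kidneys 9 members were below 0, from -0.70 (*S100a4*, SE 0.77) to -0.015 (*Lgals3*, SE 0.20), and *S100a11* was at 0.0013 (SE 0.27). With the form in the model 6 were below 0, and without TMM normalization all 10 were. *Lgals1* in CL kidneys went from 0.041 to -0.71 when VeKO CL replicate 2 was left out.

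The last comparison concerned deletion of *Pdgfb*, a growth factor for pericytes and fibroblasts. In UUO kidneys none of the 10 differed between PbKO and PbWT at an adjusted p under 0.05, where 6.58% of tested genes were called lower and 12.0% higher. All 10 were below 0, from -0.49 (*Anxa1*, SE 0.25) to -0.016 (*Lgals1*, SE 0.17), with a median of -0.27 against -0.021 over all genes, of which 52.0% were negative. DESeq2 and edgeR's exact test called none of them, and 1 had an unadjusted p under 0.05 (31.0% of genes). That was *S100a11*, at 187, 226, 237, and 237 CPM in PbWT and at 166, 174, 180, and 183 CPM in PbKO (log2 fold change -0.33, SE 0.14, adjusted p = 0.105). *S100a11* and *Anxa5* were lower without overlap, as were 9.58% of genes.

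Without TMM normalization the median of all genes in this comparison moved to -0.28, and 7 of the 10 members were then called lower, against 21.8% of tested genes. These were *Anxa1*, *Anxa3*, *Anxa5*, *S100a4*, *S100a6*, *S100a10*, and *S100a11*. The largest of them, *Anxa1*, was at -0.75 (SE 0.26), of which that shift is a part.

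In CL kidneys 8 members were lower and 2 higher in PbKO than in PbWT, from -0.52 (*S100a6*, SE 0.28) to 0.44 (*Anxa1*, SE 0.37), with 0 called by any of the 3 tools (0.00% of genes) and 0 at an unadjusted p under 0.05 (3.46% of genes). The difference between responses, PbKO minus PbWT, was largest for *Anxa1* (-0.94, SE 0.45, unadjusted p = 0.0466, adjusted p = 0.221). *Anxa1* in PbKO was at 5.00, 18.1, 24.3, and 28.9 CPM in CL and at 29.0, 36.7, 52.7, and 67.2 CPM in UUO kidneys, the lowest CL value resting on 2 counts. No other member had an unadjusted p under 0.05 in this difference, against 21.7% of tested genes. None was called, where 6.66% of tested genes were called higher and 1.90% lower.

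**Figure D4:**
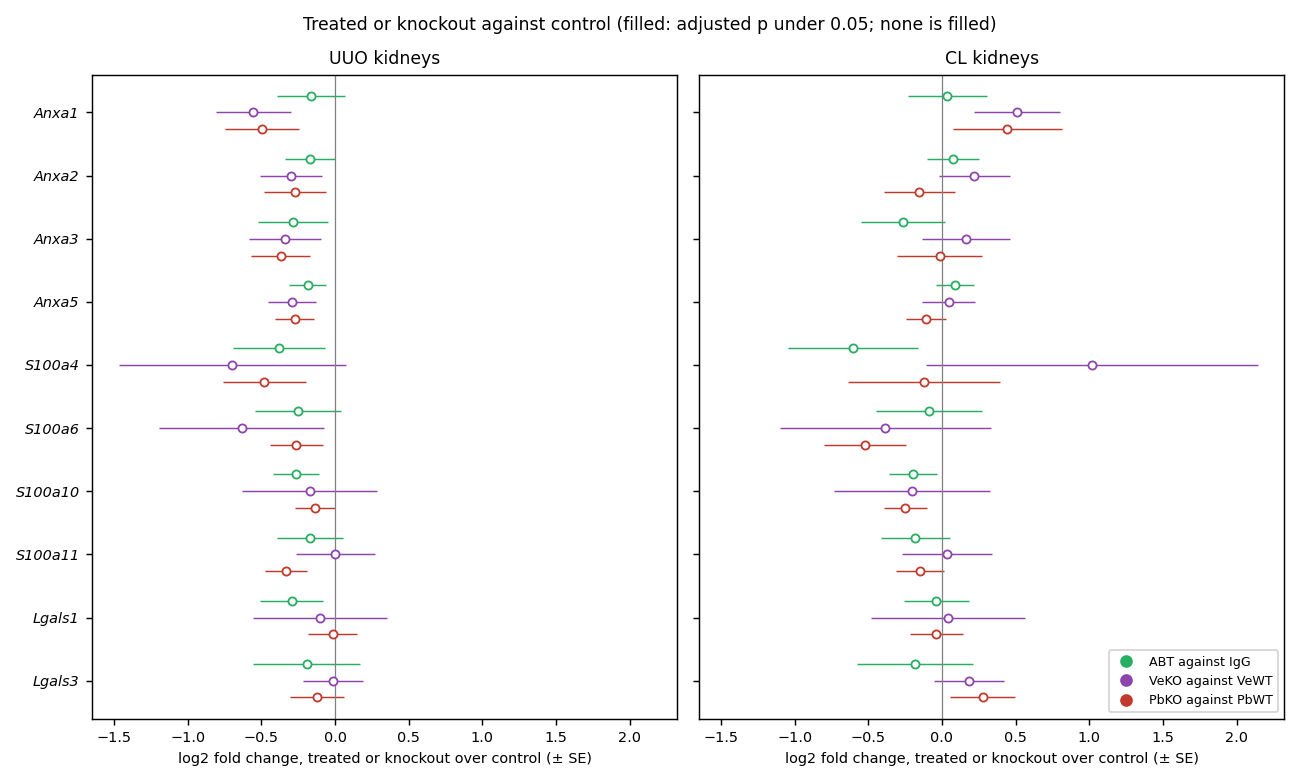
Log2 fold change of treated or knockout over control mice for the 10 genes in UUO kidneys (left) and CL kidneys (right), for ABTAA (green), Veptp (purple), and Pdgfb (red). Bars are the SE, and no point is filled because none had an adjusted p under 0.05. In UUO kidneys the points lie below 0 except that of *S100a11* in the Veptp comparison, which lies at 0.

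The other members of the 3 families moved less uniformly. For the calls that follow, the shares of all tested genes that rose and fell with UUO were 16.0% and 18.4% in IgG, 12.7% and 12.5% in ABT, 10.0% and 8.38% in VeWT, 4.47% and 3.47% in VeKO, 17.9% and 19.4% in PbWT, and 3.94% and 2.40% in PbKO. Of 4 other annexins tested in IgG mice 2 rose, *Anxa6* (log2 fold change 0.95, SE 0.18) and *Anxa7* (0.31, SE 0.12). *Anxa6* also rose in ABT (0.73), VeWT (0.90), and PbWT (0.75), and was lower in PbKO than in PbWT UUO kidneys (-0.59, SE 0.20). *Anxa13*, an annexin of epithelia, fell by 1.76 on the log2 scale in VeWT (SE 0.42) and by 1.25 in PbWT (SE 0.31). In VeKO and PbKO none of the other annexins was called by edgeR's quasi-likelihood test.

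Of the other S100 genes *S100g*, which encodes the calcium carrier calbindin-D9k of the distal nephron, went the other way. In PbWT CL its level was 1198 to 2843 CPM and in PbWT UUO 134 to 217 CPM, so it fell by 3.52 on the log2 scale (SE 0.24, adjusted p = 7.57e-11). It fell by 2.71 in IgG mice (SE 0.55). It was not called in the other groups of mice, with log2 fold changes of -1.38 in ABT (SE 0.56), -1.72 in VeWT (SE 1.17), -0.61 in VeKO (SE 1.204), and -0.70 in PbKO (SE 0.22). In the *Veptp* arm its level split by the form of name. In VeWT it was at 2146 to 3811 CPM in CL and 325 to 1183 CPM in UUO kidneys with plain names, and at 84.7 to 177 and 7.00 to 15.2 CPM with split names, so that the ranges were apart within each form. In VeKO it was at 1183 to 3461 and 501 to 1808 CPM with plain names, which overlapped, and at 131 to 268 and 8.20 to 11.8 CPM with split names. In PbKO UUO it was at 1084 to 1898 CPM, higher than in PbWT UUO by 2.97 (SE 0.23, adjusted p = 5.67e-09), and the difference between the responses was 2.82 (SE 0.31, adjusted p = 3.87e-06). *S100a16* rose in ABT (0.69, SE 0.18), VeWT (0.74, SE 0.19), and PbKO (0.77, SE 0.21), and in PbWT *S100a14* rose (2.20, SE 0.59) and *S100a1* fell by 0.61 (SE 0.16). *S100a8* and *S100a9*, the calprotectin subunits of neutrophils, did not pass the filter, with medians of at most 4.76 CPM in any group. Their highest levels, 39.8 CPM (15 counts) and 50.4 CPM (19 counts), were in VeWT UUO replicate 3.

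*Lgals9* was the galectin outside the set that rose in IgG (log2 fold change 1.18, SE 0.35), ABT (1.14, SE 0.35), VeWT (1.13, SE 0.38), and PbWT (1.34, SE 0.33). In VeWT *Lgals4* fell by 1.16 (SE 0.35).

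Of 9 tested partners and receptors, 4 rose and 1 fell in IgG mice, where 16.0% of all genes rose and 18.4% fell. *Plaur*, the urokinase receptor, rose by 3.06 on the log2 scale (SE 0.31, adjusted p = 4.04e-10) from at most 5.26 CPM in CL to 18.1 to 41.6 CPM in UUO kidneys, and it rose in all 6 groups of mice, by 2.06 to 3.06. *Plat*, tissue plasminogen activator, rose in IgG (1.64, SE 0.27), ABT (1.28), VeWT (1.42), PbWT (1.23), and PbKO (0.86). *Lgals3bp*, the galectin-3 binding protein, rose by 1.29 (SE 0.24) and *Ahnak*, a scaffold bound by the annexin A2 and S100A10 complex, by 0.92 (SE 0.19) in IgG mice. *Bsg*, reported as a receptor of S100A9, fell by 0.78 (SE 0.21). *Ahnak* was lower in PbKO than in PbWT UUO by -1.03 (SE 0.18, adjusted p = 0.000236), and *Plat* by -0.57 (SE 0.19), while *Bsg* was higher by 0.53 (SE 0.13). The formyl peptide receptors *Fpr1* and *Fpr2* were too low to be tested, with group medians of at most 0.688 and 0.298 CPM.

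**Figure D5:**
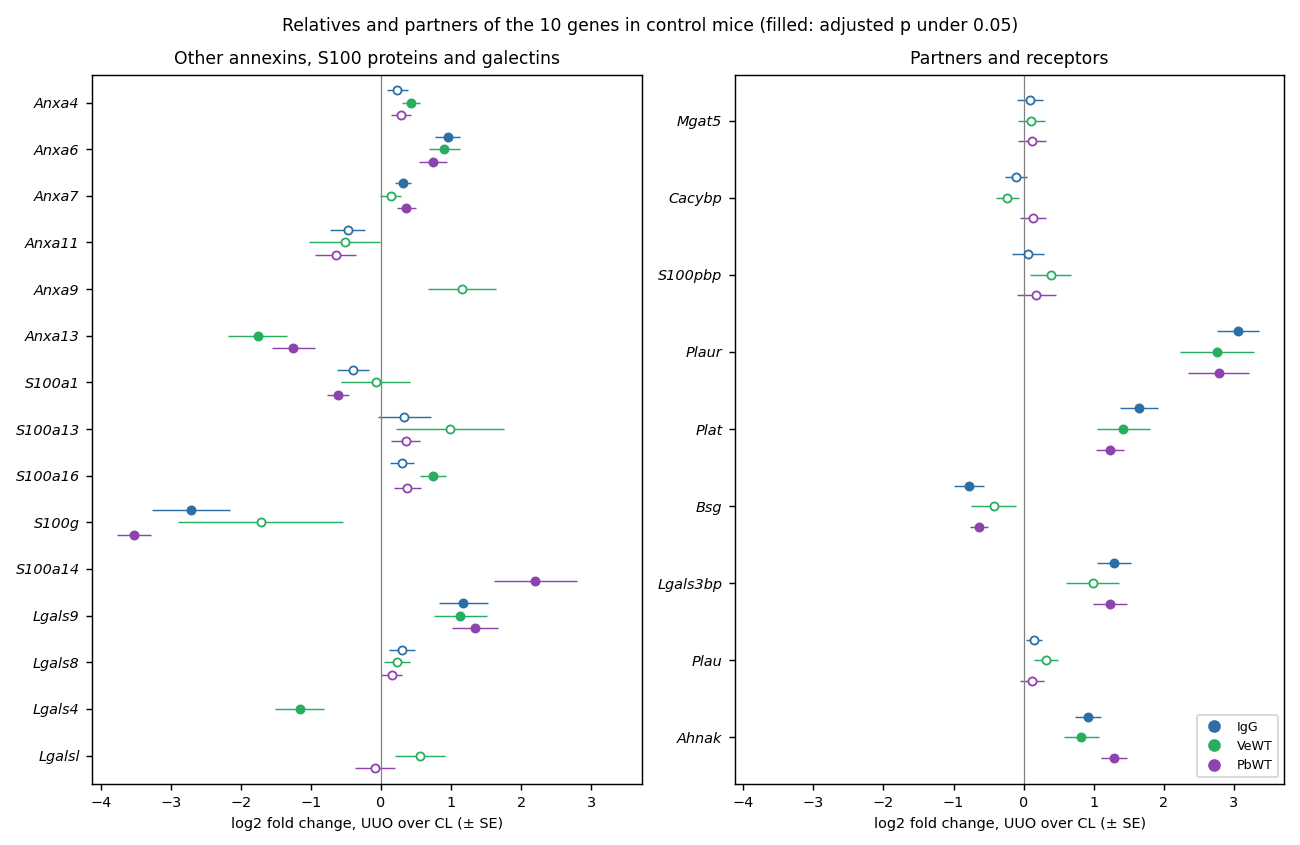
Log2 fold change of UUO over CL kidneys in control mice (IgG blue, VeWT green, PbWT purple) for the tested relatives (left) and the tested partners and receptors (right) of the 10 genes. Bars are the SE and filled points have an adjusted p under 0.05. *Plaur* lies furthest to the right in all 3 groups and *S100g* furthest to the left in IgG and PbWT.

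Markers of several cell types moved with the members. In IgG mice all 9 injured tubule markers, all 10 macrophage markers, and all 8 tested fibroblast and myofibroblast markers rose, and all 9 proximal tubule markers fell. Summed levels in CL and UUO kidneys ranged from 2525 to 3936 and from 17450 to 39254 CPM for injured tubule, from 133 to 243 and from 482 to 1026 CPM for macrophage, and from 202 to 385 and from 1310 to 2022 CPM for fibroblast markers. All markers of these 3 lists had counts in both groups. Neutrophil markers summed to at most 4.94 CPM in CL and 10.4 CPM in UUO kidneys, none of the 8 passed the filter, and *Elane* and *Camp* had no count in any library of either group. The part of each cell type in the rise of the 10 genes was not tested.

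In PbKO against PbWT UUO kidneys, where no member was called, 7 of 8 fibroblast and 6 of 10 macrophage markers were lower (6.58% of all genes), and 8 of 9 proximal tubule and all 6 loop and distal tubule markers higher (12.0% of all genes). Fibroblast markers summed to 1296 to 1748 CPM in PbWT and 467 to 1058 CPM in PbKO, macrophage markers to 568.5 to 940 and 407 to 452 CPM, and proximal tubule markers to 1739 to 2701 and 3767 to 6228 CPM. Loop and distal tubule markers, with a median log2 fold change of 2.14, summed to 2138 to 2529 and 4206 to 5968 CPM. None of these 4 sums overlapped between the genotypes. Injured tubule markers overlapped, with 14622 to 20905 CPM in PbWT and 9985 to 17875 CPM in PbKO, and 2 of 9 were lower. In VeKO against VeWT UUO kidneys, where 0.00% of genes were called, the same sums overlapped. Medians in VeWT and VeKO were 1612 and 865 CPM for fibroblast, 734 and 598 CPM for macrophage, and 13899 and 12169 CPM for injured tubule markers. Proximal tubule markers were at 4312 and 5060 CPM, and loop and distal tubule markers at 3135 and 3509 CPM. The part of these markers in the values of the members was not tested.

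The genes whose levels ran most like each member across all 75 libraries are given as a description, since libraries share group, form of name, and depth. Among 7846 genes with a mean of at least 20 CPM, *Anxa2* was most like *Tpm4* (Spearman's rho 0.91), *Krt18* (0.90), and *Flna* (0.90), genes of the cytoskeleton. *Anxa3* was most like *Cp* (0.90), which encodes ceruloplasmin, and *Anxa2* (0.89), and *Anxa1* like *Krt18* (0.82). *Anxa5* ran with *Arpc1b* (0.92) and *Ctss* (0.91), and *Lgals3* with *Hspb1* (0.90) and *H2-Ab1* (0.88). *S100a6*, *S100a11*, and *Lgals1* each had *Tmsb10* and *Cstb*, 2 more short transcripts, among their 3 most similar genes (0.92 to 0.96).

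Within the 39 UUO libraries, after group means but not the form of library name were subtracted, the pattern divided. Short transcripts differed between the forms, as given above, and the part of the form in these values was not tested. *S100a11* and *Lgals1* stayed close (0.88), and ribosomal protein genes such as *Rpl32* (0.92 with *S100a6*) and *Rps7* (0.94 with *S100a10*) were among the most similar. *Anxa1* and *Lgals1* had a rho of -0.32. *Anxa2* was most like *H2-Eb1* (0.79), *H2-Aa* (0.78), and *Havcr1* (0.78), the last of which encodes KIM-1, a protein of injured proximal tubule. *S100a4* was under 20 CPM on average and was not compared in this way.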

How the data were processed

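Whole-kidney RNA of 75 libraries was analysed from 1 table of counts per gene that the authors deposited. Per the study's methods and the submitters' processing notes, reads of 4 wells per sample were merged and mapped with STAR 2.7.3a (build mm10), duplicates were removed by molecular identifiers with UMI-tools 1.1.4, and reads were counted with featureCounts (Subread 1.4.6-p5). The deposited counts were not normalized. Neither the annotation nor the strand setting is given there.

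The 4 groups of an arm shared a fit, separate from the other arms, by edgeR 4.0.16 (with limma 3.58.1) in R 4.3.3: filterByExpr by group, TMM, glmQLFit, and glmQLFTest, with Benjamini-Hochberg adjustment over all tested genes, a threshold of 0.05, and no minimum fold change. The SE is the log2 fold change divided by the square root of F. DESeq2 1.42.0, edgeR's exact test (which the study used), and the alternatives under the processing section were run besides. Tables and figures were made with Python 3.11.15, numpy 2.4.6, pandas 2.3.3, scipy 1.17.1, and matplotlib 3.10.9. The procedure was tested on simulated data. Likeness used log2(CPM + 1).

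The members and lists were chosen with earlier results of these data known. All 10 members are named. Of the other lists, counts and up to 4 called genes with the lowest adjusted p per comparison were to be named, and only part of these is given. *S100a8*, *S100a9*, *Fpr1*, and *Fpr2* were singled out after their values were seen. Groups came from the labels, and replicates were numbered in the order of the samples. The labels do not say that libraries of a group are separate mice or which kidneys share a mouse, so p-values measure the spread between these samples. Where both kidneys carry the same number in the library name, deviations from group means correlated at 0.31 to 0.52 in the ABTAA arm (3 pairs) and 0.40 to 0.64 in the *Veptp* arm (8 pairs). Other numbers were at 0.11 to 0.31 (mean 0.19) and at 0.044 to 0.63 (mean 0.41). Within forms of name, same numbers had means of 0.25 (0.16 to 0.39) and 0.23 (0.058 to 0.43). Other numbers had means of -0.12 (-0.26 to 0.099) and -0.033 (-0.42 to 0.36). In the *Veptp* arm the numbers 3, 4, 7, and 8, which join opposite genotypes, were at 0.43, 0.29, 0.13, and 0.28 within forms. The numbers 1, 2, 5, and 6 were at 0.19, 0.39, 0.058, and 0.11. Totals of 172827 to 2341800 counts per library limit the precision of low genes.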

Additional observations from a re-analysis of the deposited data

Results flagged for a closer look

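A library far from the others of its group was found for 2 of the 120 combinations of member and group examined, while chance alone flags about 1 in 20. *S100a6* in PbWT CL replicate 2 was at 58.6 CPM (42 counts), and the other 3 libraries of that group were at 22.1 to 26.2 CPM. Of the PbWT CL kidneys 2 came from sham-operated mice, and whether this is one of them is not given in the labels. *S100a10* in PbKO UUO replicate 1 was at 274 CPM (82 counts), below the other 3 libraries at 326 to 335 CPM.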

How the results depend on the processing

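All 10 members kept their rise in IgG, ABT, and PbWT under every alternative that could test them. In VeWT the 9 called members became 7 with *Xist* as a covariate and without the numbers 3, 4, 7, and 8, 8 after thinning, and 10 without TMM normalization, with the form of name as a covariate, with plain names alone, and with the replicate block. In PbKO the 9 became 8 after thinning and 10 without TMM normalization and with *Xist* as a covariate. In VeKO the 4 called members became 7 without TMM normalization and with *Xist* as a covariate, 8 with the form of name as a covariate and with split names alone, 9 with the replicate block, 2 without the numbers 3, 4, 7, and 8, and 0 with plain names alone, where only 2 CL libraries remain and no gene was called. Of those 2 CL libraries 1 is VeKO CL replicate 2, with its high injured tubule markers. The other tools, the filter, and thinning gave 4 to 6 in VeKO. Leaving out 1 library gave 4 to 7 calls in VeKO, 7 to 9 in VeWT, and 7 to 10 in PbKO. For PbKO against PbWT in UUO kidneys, 7 were called without TMM normalization and 0 under the other alternatives. Beside these VeKO calls and *S100a10* in VeWT, the replicate block changed no call. *S100a4* could not be tested after thinning to the shallowest library or in the *Veptp* libraries with split names alone, since it fell below the filter there.

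Directions turned only for log2 fold changes that were not called. With split names alone these were *Anxa2* (0.15) and *S100a6* (0.45) for ABT against IgG in UUO, *S100a6* (0.71) in CL, *Lgals3* (0.58) for the ABT difference in response, *Lgals3* (0.22) for VeKO against VeWT in UUO, and *Lgals1* (0.58) and *Lgals3* (0.14) for the VeKO difference in response. With plain names alone it was *Anxa2* in CL for ABT (-0.18). With the replicate block they were *S100a11* (0.091) and *Lgals3* (0.38) for ABT in UUO, *Anxa2* (-0.17) and *Lgals3* (0.22) for ABT in CL, and *Anxa2* (-0.027) for VeKO in CL. In the ABTAA arm that fit sets ABT libraries with plain names against IgG libraries of both forms, as given above. *Anxa3* turned for ABT in CL after thinning (0.11), and *S100a6* for the VeKO difference with *Xist* as a covariate (0.74). The PbKO difference turned for *S100a10* (-0.17) and *Lgals1* (-0.27) without TMM normalization and for *S100a10* after thinning (-0.15). Over single libraries left out, *Lgals1* ranged from -0.71 (without VeKO CL replicate 2) to 0.28 for VeKO against VeWT in CL kidneys and from -0.38 to 0.61 (without the same library) for the VeKO difference, *Anxa2* from -0.40 to 0.15 (without PbWT CL replicate 2) for PbKO against PbWT in CL kidneys, and *S100a6* from -0.14 (without that library) to 0.39 for the PbKO difference. The cause was not tested. A change of sign by less than 1 SE between values that are not called was not counted. Depth limits *S100a4* most, which had 0 to 11 counts in a library of IgG CL.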
